A study of Mus musculus with 13 samples.

Results

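Of the 18310 open chromatin regions in the unified list that the authors deposited for E14 mouse embryonic stem cells, 4655 (25.4%) lay inside gene bodies and away from gene starts. A region was taken into this set when it was more than 1000 bp from every transcription start site (TSS, the 5′ end of each gene interval in the deposited count table) and overlapped the interval of at least 1 gene, its host. The other regions were 7623 TSS-proximal regions, within 1000 bp of a TSS, and 6032 distal intergenic regions. The choice used positions only. All libraries came from E14, an embryonic stem cell line of 129/Ola background grown in serum with leukemia inhibitory factor (LIF), with no other genotype or treatment. Low-input ATAC&mRNA-seq, which cuts open chromatin with the transposase Tn5 and captures mRNA from the same lysate, was run with 10000 and 20000 cells in experiment 1 and with 5000, 10000 and 20000 cells in experiment 2, on different days. Omni-ATAC, the benchmark protocol, was run with 5000, 10000 and 50000 cells, 1 library each. This gave 8 ATAC peak lists and 5 mRNA libraries, and nothing in the labels says whether the experiments began from separately thawed cells.

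Open chromatin inside a gene and away from its start is where transcription factors, architectural proteins such as CTCF or the transcription machinery can keep DNA free of nucleosomes. Such sites include enhancers, which may act on the host gene or on another gene, insulators, and alternative promoters from which shorter or different transcripts of the host begin. In embryonic stem cells, intronic and upstream enhancers bound by Oct4, Sox2, Esrrb and Klf factors are known to sustain the pluripotency genes.

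The set held sites of at least 1 recognisable kind, other annotated starts of the same gene. RefSeq start windows on GRCm38.p6 (mm10), each 250 bases upstream and 50 bases downstream of a transcript start, overlapped 262 of the 4655 regions (5.63%). For 216 of them it was another start of the host itself, for 2 a start of another gene in the count table, and for 44 a start of a gene outside the table. Windows were held for 2579 of the 3346 host genes, so these counts are minimums. For 26 hosts a region at another start was found in all 8 peak lists and covered at least 200 of the 250 upstream bases. Of these 26, 13 held a searched motif. The sequences below are the parts of these regions that lie upstream of such a start, for the 7 of the 13 at a mean of 20 CPM or more (counts scaled to the library total). They are printed 5′ to 3′ in the direction of the gene, from RefSeq, and capitals mark a match on either strand to a Klf motif (GGGCGTG), a CTCF core (AGGGGGC) or an AP-1 motif (TGACTCA).
Dnmt1 (chr9:20952638-20952873, minus strand): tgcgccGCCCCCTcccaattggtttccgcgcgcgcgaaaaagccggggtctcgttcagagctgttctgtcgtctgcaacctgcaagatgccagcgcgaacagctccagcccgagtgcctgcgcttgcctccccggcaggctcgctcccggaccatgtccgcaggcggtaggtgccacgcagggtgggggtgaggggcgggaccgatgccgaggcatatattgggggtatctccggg
Txnrd1 (chr10:82858956-82859203, plus strand): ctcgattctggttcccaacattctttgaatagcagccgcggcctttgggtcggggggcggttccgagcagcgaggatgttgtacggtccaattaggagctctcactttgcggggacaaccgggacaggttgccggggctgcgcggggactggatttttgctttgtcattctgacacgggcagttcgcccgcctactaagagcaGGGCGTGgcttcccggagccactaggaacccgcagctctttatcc
Sin3a (chr9:57076126-57076325, plus strand): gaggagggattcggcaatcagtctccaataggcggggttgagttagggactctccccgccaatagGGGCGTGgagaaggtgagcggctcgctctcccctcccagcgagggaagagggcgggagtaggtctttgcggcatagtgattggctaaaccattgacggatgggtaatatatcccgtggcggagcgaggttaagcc
Idh1 (chr1:65179143-65179392, minus strand): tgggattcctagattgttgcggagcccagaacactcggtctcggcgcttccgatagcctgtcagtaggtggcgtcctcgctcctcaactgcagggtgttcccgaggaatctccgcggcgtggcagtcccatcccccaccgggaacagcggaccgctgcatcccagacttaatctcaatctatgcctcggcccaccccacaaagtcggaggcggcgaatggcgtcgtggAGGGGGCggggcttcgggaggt
Plcd1 (chr9:119088262-119088511, minus strand): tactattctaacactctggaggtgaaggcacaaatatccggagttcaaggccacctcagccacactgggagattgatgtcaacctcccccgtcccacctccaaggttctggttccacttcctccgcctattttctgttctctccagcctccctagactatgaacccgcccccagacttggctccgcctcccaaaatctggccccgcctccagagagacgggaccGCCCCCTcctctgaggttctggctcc
Dhcr7 (chr7:143830000-143830213, plus strand): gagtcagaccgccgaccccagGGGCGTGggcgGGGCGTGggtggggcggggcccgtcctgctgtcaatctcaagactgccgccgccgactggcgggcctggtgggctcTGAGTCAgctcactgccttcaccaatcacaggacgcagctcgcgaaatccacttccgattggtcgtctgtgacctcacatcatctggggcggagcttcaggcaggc
Ptprs (chr17:56462222-56462471, minus strand): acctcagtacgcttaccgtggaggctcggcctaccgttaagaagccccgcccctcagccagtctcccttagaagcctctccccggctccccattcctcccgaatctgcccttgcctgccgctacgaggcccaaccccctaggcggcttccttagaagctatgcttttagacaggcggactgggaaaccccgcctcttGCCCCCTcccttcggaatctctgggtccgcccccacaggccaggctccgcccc

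Dnmt1 encodes the maintenance DNA methyltransferase, and its alternative first exons are a known feature of oocytes and somatic cells. The count table put its TSS at chr9:20959888, while the start shown lay 7.27 kb inside the gene and the centre of its region 7.01 kb. No region of the unified list was within 1000 bp of the table's TSS. The mRNA stood at 188, 183, 138, 156 and 183 CPM. Here and below, CPM are given in the order experiment 1 with 10000 and 20000 cells, then experiment 2 with 5000, 10000 and 20000 cells. Txnrd1, a thioredoxin reductase, had its open other start 25.3 kb from the table's TSS, and Ptprs, a receptor tyrosine phosphatase, 14.3 kb from it. The distance of the start was 4.34 to 7.34 kb for Sin3a (a corepressor scaffold), Idh1 (cytosolic isocitrate dehydrogenase), Plcd1 (a phospholipase C) and Dhcr7 (the last enzyme of cholesterol synthesis).

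Over the 311 start windows that these intragenic regions overlapped, the Klf motif was present in 48 (15.4%), against 8.43% of all 32815 windows. The CTCF core was present in 17.7% against 10.6%, the AP-1 motif in 6.75% against 5.20%, the octamer ATGCAAAT in 3.22% against 1.74%, and the Sox motif CATTGTT in 2.25% against 3.78%. No window of the 311 held the Esrrb motif TCAAGGTCA, which 0.424% of all windows held. Median GC content was 59% in the overlapped windows and 52.7% in all windows, so the GC-rich motifs moved with base composition, whose part was not tested. These are matches of letters on both strands, and no sequence was read for the 4393 regions away from a start window.

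Intragenic regions at another start of their host were wide and often found. Their median width was 181.5 bp, against 132 bp for the 4393 regions at no start window. All 8 lists held 71 of the 216 (32.9%), against 738 of the 4393 (16.8%). The sparsest list, Omni-ATAC from 5000 cells, held 38.9% of them against 26.0%. TSS-proximal regions, for comparison, were in all 8 lists in 38.2% of cases.

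As a whole the intragenic regions were short, with a median width of 135 bp (lower and upper quartiles 95 and 212 bp), against 199 bp for TSS-proximal and 144 bp for distal intergenic regions. Under 100 bp were 28.8% of them. The widest was an 820 bp region in Myo10, an unconventional myosin of filopodia, at chr15:25761874-25762693, 139.7 kb from the TSS. Next came 801 bp in the adhesion receptor gene Adgrd1, 764 bp in the NAD kinase gene Nadk at another start of it, 749 bp in the glutathione peroxidase gene Gpx4, and 726 bp in the interval shared by Iqschfp and Schip1. All 5 were found in all 8 lists. Of their hosts, Iqschfp;Schip1, as the table names it, had 0 counts in every library, and Gpx4 stood at 381 to 429 CPM.

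The regions lay far from the TSS of their hosts and were found along their whole length. Median distance to the host's TSS was 27.4 kb (quartiles 9.73 and 79.3 kb), and the farthest, in Cntnap2, was 2234 kb away. Within 10 kb of it lay 1191 (25.6%), and beyond 100 kb lay 945 (20.3%). When each gene was divided into 4 equal parts from its TSS, they held 23.6%, 24.1%, 24.9% and 27.5% of the regions. Of 10 equal parts, the first held 383 regions, the fewest, and the last 544, the most. The rule leaves out regions within 1000 bp of a TSS, which lowers the count of the first part. Regions found in all 8 lists lay nearer, with a median of 21.2 kb and 30.9% within 10 kb, than those in 3 to 5 lists, with 29.8 kb and 23.8%. At the edge of the rule, 37 members less than 100 bp beyond the limit of 1000 bp were found in a mean of 6.41 lists. The 33 regions in genes that lay less than 100 bp inside it, and so outside the set, were found in a mean of 5.67 lists.

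Density differed between chromosomes. Chromosome 15 held 285 regions, 7.28 per Mb of gene intervals, followed by chromosome 8 with 6.51, chromosome 11 with 6.37 and chromosome 19 with 6.30. The lowest values were 1.14 per Mb on the X chromosome, with 49 regions, and 3.06 on chromosome 14. No region overlapped a RefSeq miRNA hairpin.

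Recovery of the intragenic regions rose with the number of cells in every series. A region counted as found when a peak of a list overlapped at least 1 bp of it. In Omni-ATAC 1244 of 4655 were found with 5000 cells (26.7%, 95% Wilson interval 25.5 to 28.0%), 80.6% with 10000 and 99.8% with 50000. In experiment 1 the low-input lists held 61.5% with 10000 and 81.4% with 20000 cells. In experiment 2 they held 60.5% with 5000, 88.0% with 10000 and 99.2% with 20000 cells. The list with more cells held more in 7 of 7 pairs within a series (exact permutation test of concordant pairs, two-sided; p = 0.0278, which is the lowest value 72 arrangements can give, and 0.0347 adjusted over the 5 permutation tests made). When every list was limited to its 9097 widest peaks, the length of the shortest list, the order was lost, with 3 of 7 pairs (exact permutation p = 1). Sequencing depth of the ATAC libraries is unknown and its part was not tested.

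**Figure D1:**
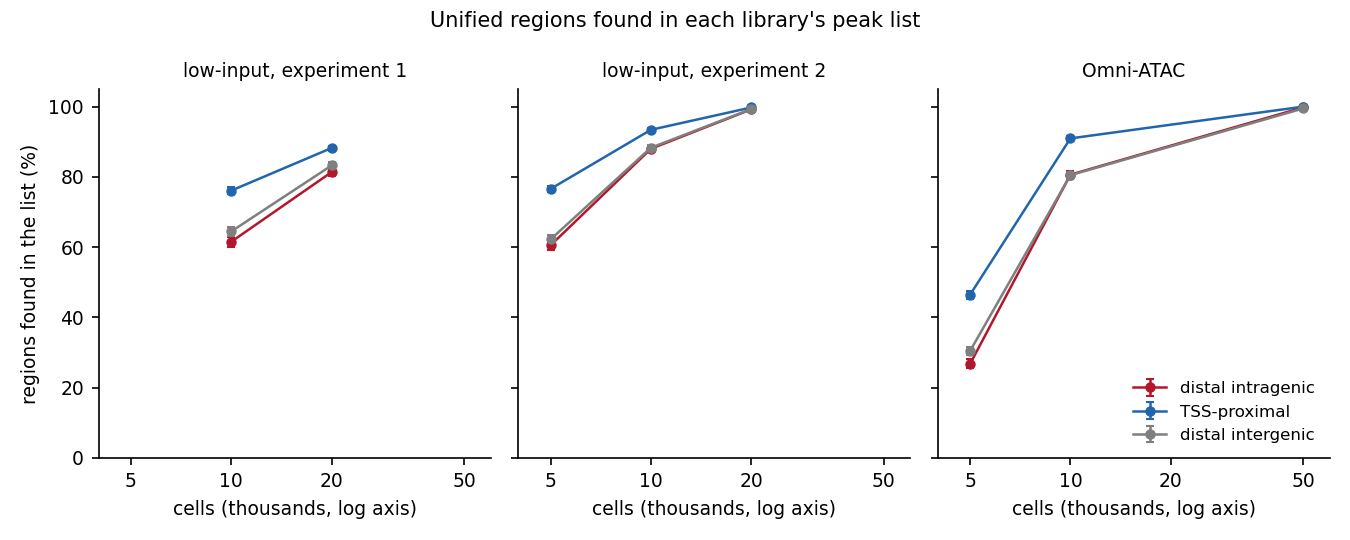
Percent of the regions of each class found in each peak list (y axis) against cells used (x axis, in units of 1000, log axis), for the low-input experiments 1 and 2 and Omni-ATAC; points are single libraries and bars are 95% Wilson intervals. The intragenic regions run from 26.7% with 5000 Omni-ATAC cells to 99.8% with 50000, below TSS-proximal regions in all 8 lists and close to distal intergenic ones.

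TSS-proximal regions were found more often than intragenic ones in 8 of 8 lists. The difference in percent found, intragenic minus TSS-proximal, was -9.21 points ± 7.21 (SD, n = 8 lists), from -19.7 in Omni-ATAC from 5000 cells to -0.202 in Omni-ATAC from 50000 cells (exact sign-flip permutation test, two-sided, p = 0.00781, the smallest possible, and 0.0347 adjusted over 5 tests). Part of it went with width: within bins of region width the difference was -4.51 points, again in 8 of 8 lists. In percent, the gap narrowed with more cells in 7 of 7 pairs (exact permutation p = 0.0278, adjusted 0.0347), as both classes neared 100%. Expressed as odds, 5 of 7 pairs went the other way (exact permutation p = 0.5). With intervals of at least 50 bp the gap in percent rose in 1 of 7 pairs, and the call was lost (exact permutation p = 0.167). Among the widest peaks of each list it rose in 4 of 7. The odds of being found were 1.71 to 16.4 times as high for TSS-proximal regions. With 5000, 10000 and 50000 Omni-ATAC cells they were 2.38, 2.41 and 16.4 times as high, the last resting on 10 intragenic regions not found. In experiment 1 they were 1.99 and 1.71 times as high, and in experiment 2 they were 2.13, 1.93 and 3.05 times as high.

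Against distal intergenic regions the intragenic ones did not pass the test. The difference was -1.27 points ± 1.51 (SD, n = 8 lists), lower in 6 of 8 (exact sign-flip permutation p = 0.0781, adjusted 0.0781). It ran from -3.68 points in Omni-ATAC from 5000 cells to 0.316 points in Omni-ATAC from 50000 cells. Within bins of width it was -0.40 points. Among the widest peaks of each list it was -2.80 points and passed (exact sign-flip permutation, adjusted p = 0.0391).

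Every region of the unified list, of any class, was found in at least 3 of the 8 lists, so recovery is conditioned on how that list was made, which is not given in the sources used here. Among intragenic regions, 204 were found in 3 lists, 691 in 4, 860 in 5, 975 in 6, 1106 in 7 and 819 (17.6%) in all 8. All 8 lists held 38.2% of TSS-proximal and 19.4% of intergenic regions. All 5 low-input lists held 1880 intragenic regions (40.4%), against 61.0% and 43.1% of the other classes. Width ordered these shares. Of intragenic regions of 50 to 99 bp 5.37% were in all 8 lists, of those of 300 bp or more 49.5%, and the TSS-proximal shares at the same widths were 9.28% and 69.2%.

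**Figure D2:**
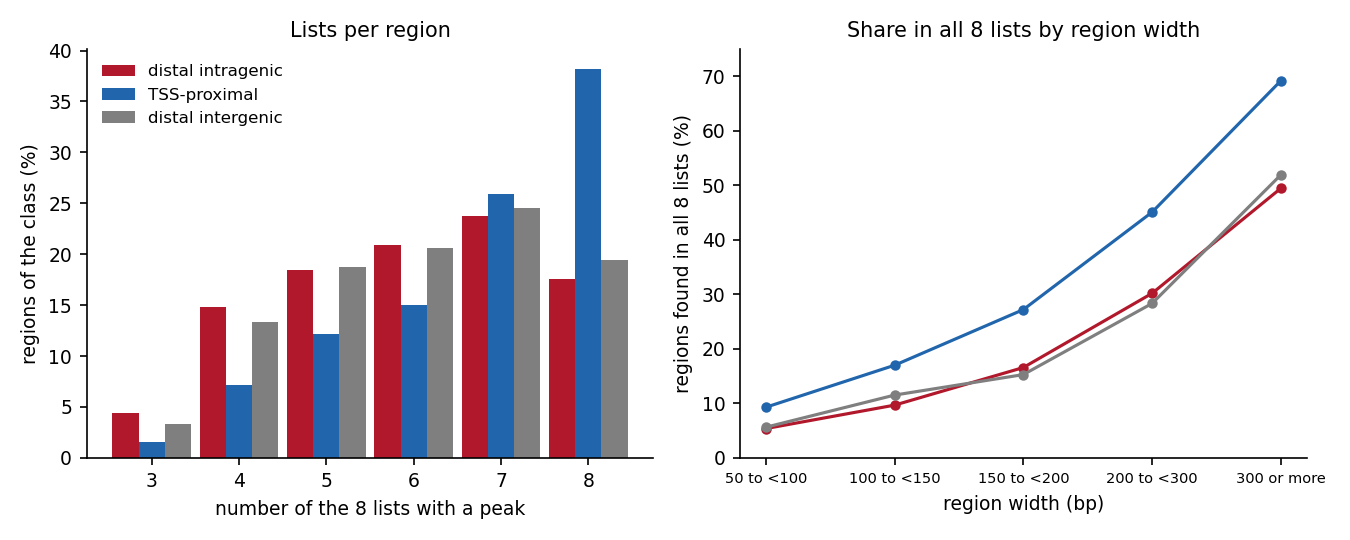
Left, percent of each class of regions (y axis) by the number of the 8 peak lists that held the region (x axis); right, percent found in all 8 lists (y axis) by region width in bp (x axis). Intragenic and intergenic regions overlie each other, while TSS-proximal regions are more often in all 8 lists in each width bin, 69.2% against 49.5% for intragenic regions of 300 bp or more.

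The sparsest Omni-ATAC list accounted for most single absences. Of the 1106 regions missing from exactly 1 list, 877 were missing from Omni-ATAC with 5000 cells, 100 from the low-input list with 5000 cells, 66 from experiment 1 with 10000 cells and 41 from Omni-ATAC with 10000 cells. With 5000 cells, both protocols found 995 regions, the low-input protocol alone 1820 (39.1%), Omni-ATAC alone 249 (5.35%) and neither 1591. Over all unified regions, 36.8% were found by the low-input protocol alone and 5.23% by Omni-ATAC alone. These are 1 library each, with 18637 and 9097 peaks in all, so the difference was not tested. In all 5 low-input lists but in neither Omni-ATAC list from 5000 or 10000 cells were 143 regions (3.07%, beside 2.53% of all unified regions). Absent from Omni-ATAC with 50000 cells were 10.

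The same position rule was applied to each list's own peaks, which does not depend on the unified list. Distal intragenic peaks made up 21.1% of the Omni-ATAC list from 5000 cells, 28.3% of that from 10000 and 35.3% of that from 50000. In experiment 1 they made up 24.9% and 27.4%, and in experiment 2 24.8%, 28.1% and 31.7%. The share was higher with more cells in 7 of 7 pairs (exact permutation p = 0.0278, adjusted 0.0347), but in 3 of 7 (exact permutation p = 1) among the 9097 widest peaks of each list. The shortest interval in the lists, 9 bp, moved with it. Such intervals were 67.3% of the intragenic peaks of Omni-ATAC from 5000 cells and 26.6% of those from 50000 cells. Peaks of at least 50 bp gave 7 of 7 pairs as well.

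The overlap between experiments was also counted on the lists' own peaks. Of 4705 intragenic peaks of experiment 1 with 10000 cells, 65.3% overlapped a peak of experiment 2, against 79.9% of TSS-proximal and 66.5% of intergenic peaks. With 20000 cells the shares were 76.9%, 88.4% and 77.1%. In the other direction, where the lists are longer, 36.2% and 35.3% of intragenic peaks of experiment 2 were found in experiment 1. These are single pairs of lists of unequal length and were not tested.

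Regions of the unified list that experiment 2 held and experiment 1 lacked were found in every class. In both lists from 10000 and 20000 cells of experiment 2 and in neither of experiment 1 were 458 intragenic regions (9.84%), beside 5.46% of TSS-proximal, 8.94% of intergenic and 7.72% of all 18310 unified regions. The lists of experiment 2 were the longer ones, with 29870 and 49508 peaks against 18877 and 27016. Of the 458, 152 were also in its 5000-cell list. The reverse held for 3 regions, in Mreg, Rbfox1 and Tulp4, and both experiments held 2423. The share was highest on chromosome 8: 58 of its 312 regions (18.6%) were in experiment 2 only. On chromosome 13 it was 16.9%, on chromosome 14 15.6% and on chromosome 19 5.71%. The 5000-cell list of experiment 2 held 71.8% of the chromosome 8 regions and the 10000-cell list of experiment 1 56.1%, while over all chromosomes they held 60.5% and 61.5%. Chromosome 14 was alike, with 66.7% and 51.9%, and so was chromosome 13, with 63.6% and 55.2%.

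**Figure D3:**
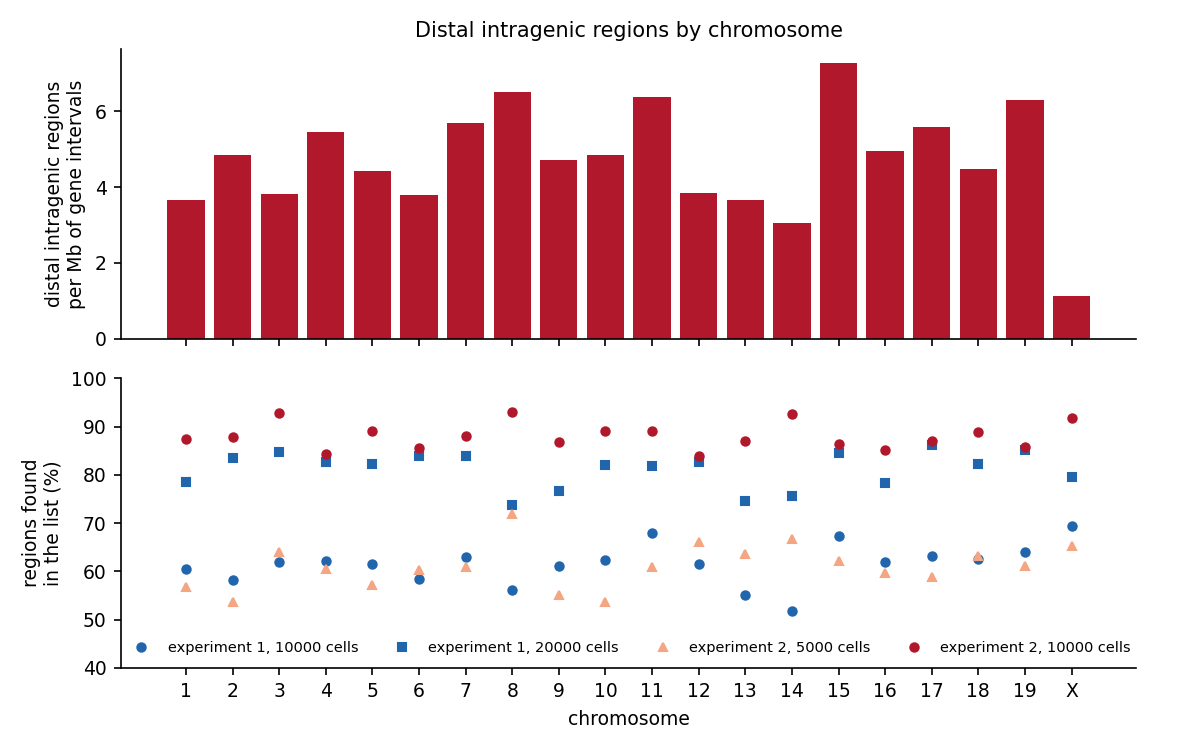
Top, distal intragenic regions per Mb of gene intervals (y axis) by chromosome (x axis); bottom, percent of them found (y axis, from 40 to 100%) in 4 low-input lists. Chromosome 15 is densest at 7.28 and X sparsest at 1.14, and on chromosome 8 the experiment 1 lists fall to 56.1% and 73.7% while the experiment 2 lists hold 71.8% and 92.9%. Chromosome 14 has 51.9% and 75.6% against 66.7% and 92.6%, and chromosome 13 has 55.2% and 74.7% against 63.6% and 87.0%.

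The 4655 regions had 3346 host genes among the 24470 of the table. Of the regions 4582 had 1 host, and 73 lay where gene intervals overlap. A single region was held by 2476 hosts, 574 had 2, 172 had 3, and 1 had 10. The rule favours long genes, which have more room for a region over 1000 bp from a TSS. The median interval was 52.2 kb for hosts against 11.0 kb for the other genes. When all genes were divided by length into 4 classes of equal size, 0.768% of the shortest and 32.4% of the longest were hosts.

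A larger share of host genes than of other genes was expressed. At least 10 counts in all 5 mRNA libraries were reached by 2114 of 3346 hosts (63.2%, 95% Wilson interval 61.5 to 64.8%) and by 8677 of 21124 other genes (41.1%, 40.4 to 41.7%). No count in any library was recorded for 91 hosts (2.72%) and for 21.3% of other genes. Single libraries gave 70.8% to 76.6% of hosts and 46.4% to 48.5% of other genes with 10 counts or more. The table gives no transcript lengths, so levels were not compared between genes, and longer genes may collect more reads. Within the 4 classes of gene length from shortest to longest, hosts reached 44.7%, 58.5%, 69.6% and 61.6%, and other genes 18.4%, 45.9%, 54.5% and 50.9%.

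Hosts and other genes had close shares where the gene's own TSS was open, and shares far apart where it was not. Where a unified region lay within 1000 bp of the gene's TSS, 81.4% of 1315 hosts and 79.5% of 6814 other genes were expressed by this measure. Where none did, 1044 of 2031 hosts were expressed (51.4%, 95% Wilson interval 49.2 to 53.6%), against 22.8% of 14310 other genes (22.1 to 23.5%). From the shortest to the longest genes without an open TSS, the shares were 35.1%, 47.4%, 58.1% and 49.8% of hosts and 10.6%, 27.2%, 31.4% and 31.1% of others. An open alternative start was known for few of them. Of the 2031 hosts, 135 (6.65%) carried a region at another RefSeq start of a host gene, and 112 of these (83.0%) were expressed, while 932 of the remaining 1896 were (49.2%, 46.9 to 51.4%). These are shares of genes in 1 cell line and carry no test.

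**Figure D4:**
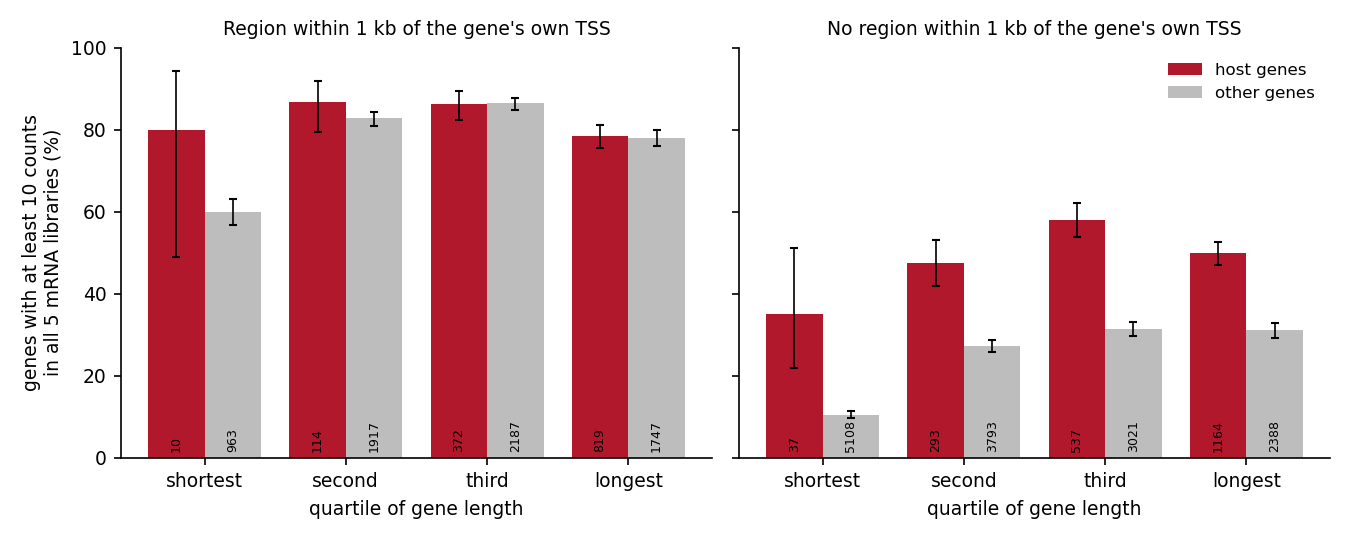
Percent of genes with at least 10 counts in all 5 mRNA libraries (y axis) by class of gene length (x axis), for host genes of intragenic regions and other genes, with an open region at the gene's own TSS (left) and without (right); bars are shares with 95% Wilson intervals and numbers in the bars are genes. With an open TSS the 2 kinds of gene reach 81.4% and 79.5% in all, and without one 51.4% and 22.8%.

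Expression also went with the number and the recovery of the regions. Of hosts with 1 region 60.5% were expressed, with 2 regions 68.6%, with 3 or 4 regions 74.7% and with 5 or more 78.0% (46 of 59). Where the best recovered region of the host was in 3 to 5 lists the share was 57.7%, in 6 or 7 lists 63.5% and in all 8 lists 70.1%. Longer genes hold more regions, and the part of length in these shares was not tested.

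The host with the most regions was Gm14403, a predicted gene on chromosome 2, with 10. Its interval in the table spans 511.4 kb, 6 of the regions were in all 8 lists, and a pair of them had the same width of 356 bp. Predicted genes of this kind can have near-identical copies nearby, so both its regions and its counts, at 1.27 to 3.35 CPM, are uncertain. Myo10 had 9, of which 5 were in all 8 lists. They lay 70.2 to 151.4 kb from the TSS, and the mRNA stood at 49.7, 55.7, 58.4, 56.4 and 60.3 CPM. Dst, the cytoskeletal linker dystonin, also had 9, 3 of them in all 8 lists, and stood at 25.6, 19.4, 21.1, 29.9 and 27.8 CPM. None of these 3 hosts passed the test between experiments or cell numbers.

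The hosts with 8 regions each are given by the range of their CPM over the 5 libraries, which is not scaled to gene length. Rnf220, a ubiquitin ligase, stood at 123 to 152 CPM and Zmynd8, a chromatin reader, at 81.4 to 106 CPM. Sh3pxd2a, a scaffold of podosomes, stood at 4.15 to 8.52 CPM, the sialyltransferase gene St6galnac3 at 1.09 to 4.64 CPM and Pdzd2 at 0.736 to 2.25 CPM. Utrn, described below, also had 8. The intervals of Gm14403, Dst, Sh3pxd2a and St6galnac3 each overlap 1 other gene, so their counts are uncertain. Rarg, a retinoic acid receptor and the shortest of 8 hosts with 7 regions each, spans 22.6 kb and held them 6.85 to 22.1 kb from its TSS and 1 of them at another RefSeq start. It stood at 75.8 and 72.3 CPM in experiment 1 and 37.2, 43.9 and 38.9 CPM in experiment 2. Rarg fell by 0.84 ± 0.15 on the log2 scale (SE, edgeR's quasi-likelihood test, adjusted p = 0.000295).

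Among 20 core and naive pluripotency factors, 8 were hosts, with 14 regions of which 4 were in all 8 lists. Esrrb, the orphan nuclear receptor of the naive state, held 6 of the 14, between 72.4 and 143.4 kb from its TSS. Its regions at chr12:86433387-86433583, chr12:86471002-86471150 and chr12:86501664-86502089 were in all 8 lists. The others were in 5 lists (chr12:86504408-86504635) and 4 lists (chr12:86478924-86479130 and chr12:86498884-86499053), so neighbouring sites of 1 gene differed in recovery. No region was within 1000 bp of the table's TSS of Esrrb, whose mRNA stood at 74.5, 82.2, 76.7, 82.2 and 85.4 CPM.

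Tfcp2l1, another naive-state factor, held 2 regions, 14.9 and 20.3 kb from its TSS, in 8 and 7 lists. Pou5f1 (Oct4), Tbx3, Nr5a2, Sall4, Lin28a and Tdh, which encodes threonine dehydrogenase, had 1 each. The region in Pou5f1, chr17:35509454-35509591, was 3.49 kb from the TSS and in 4 lists, while that in Tbx3 was 412 bp wide and in 7 lists. All 8 hosts had at least 10 counts in every library. Between experiments, where 12.5% of all genes tested passed, 0 of the 8 passed the test by edgeR or DESeq2, 1 having an unadjusted edgeR p under 0.05, with log2 differences from -0.53 ± 0.20 for Tbx3 (SE, edgeR adjusted p = 0.0881) to 0.47 ± 0.25 for Lin28a (adjusted p = 0.237). With cell number as a block Tbx3 passed, at -0.55 (edgeR adjusted p = 0.0465). Over the whole list of 20, 3 genes were higher and 1 lower in experiment 2, beside 5.75% and 6.76% of all genes tested, with a median log2 difference of 0.05 against 0.00 for all genes tested. Counts of Pou5f1 are uncertain because near-identical copies exist elsewhere in the genome.

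Of 25 regulators of chromatin and DNA methylation, 13 were hosts, with 23 regions, 6 of them in all 8 lists. Tet2, a 5-methylcytosine dioxygenase, held 4 between 10.1 and 25.5 kb from its TSS, in 7 to 8 lists. Jarid2 and Kdm4c held 3 each. Eed, a core subunit of Polycomb repressive complex 2, held 1 region of 322 bp in all 8 lists, 5.22 kb from its TSS, and stood at 311, 327, 236, 277 and 282 CPM. Of the 13 hosts 1 passed the test between experiments. With cell number as a block Kdm2b passed too, at a log2 difference of -0.69 (edgeR adjusted p = 0.0495), against -0.71 (adjusted p = 0.0597) without it. Kdm2b also passed among genes at a mean of 10 CPM or more (edgeR adjusted p = 0.0365) and without the 20000-cell library of experiment 1 (-0.96, adjusted p = 0.00615), but stood at -0.40 (adjusted p = 0.494) without its 10000-cell library. Dnmt3l, the cofactor of the de novo methyltransferases, stood at 319 and 340 CPM in experiment 1 and 219, 250 and 261 CPM in experiment 2. Dnmt3l fell by 0.37 ± 0.11 on the log2 scale (SE, edgeR adjusted p = 0.0359). The call was lost without any 1 of the 4 libraries in the fit, and with no filter on low counts. Its only region, 119 bp and 5.95 kb from the TSS, was in the lists from 10000 and 20000 cells of experiment 2 and in none of experiment 1, but also in all 3 Omni-ATAC lists. The intervals of Dnmt3l and Dnmt1 each overlap 1 other gene, so their counts are uncertain. Over the list of 25, 1 gene was higher and 2 were lower (5.75% and 6.76% of all genes tested), with a median log2 difference of -0.06.

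In the LIF, BMP and FGF pathways 5 of 20 genes were hosts, with 6 regions. Lifr, the LIF receptor, and Etv5, a transcription factor downstream of FGF, each held 1 region in all 8 lists, 3.36 and 10.5 kb from the TSS. Fgf4 and Etv4 held 1 each, in 6 lists. Fgfr1, an FGF receptor on chromosome 8, stood at 18.2, 26.4, 26.4, 34.2 and 36.8 CPM. Its fitted difference was 0.67 ± 0.19 on the log2 scale (SE, edgeR adjusted p = 0.0174), a call lost without the 10000-cell library of experiment 1 and without either library of experiment 2 in the fit. The interval of Fgfr1 also overlaps 1 other gene. The other 4 hosts of this list did not pass the test. Of the 19 genes of the list that were tested, 4 were higher and 0 lower in experiment 2 (5.75% and 6.76% of all genes tested), with a median log2 difference of 0.18.

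Of all genes in the count table, 13.7% (3346 of 24470) were hosts. Of 12 genes listed for the formative and primed states 3 were hosts, Fgf5, Tcf7l1 and Utrn, the second with 4 regions. Utrn, a dystrophin homologue, held 8 of that list's 13 regions, and its use as a marker of these states was not tested. Of 15 lineage transcription factors 1 was a host, Neurog2, with a region 1.14 kb from its TSS in 7 lists and 0 to 0.364 CPM of mRNA. Of 20 very long genes 16 were hosts, with 47 regions, 9 in all 8 lists, and 9 of the 16 had at least 10 counts in every library. Csmd1, at 0 to 0.451 CPM, held a 400 bp region in all 8 lists, and Lrp1b, at 0 to 0.597 CPM, a 297 bp one. Ctnna3 had 0 counts in all 5 libraries, which allows up to 0.147 CPM in the deepest, and held 1 region of 52 bp. Dmd, at 17.3 to 24.5 CPM, held 2 regions, both over 1495 kb from the table's TSS. The intervals of Csmd1, Lrp1b, Ctnna3 and Dmd each overlap 1 other gene, so their counts are uncertain. Of the 11 long hosts tested between experiments 0 passed by edgeR or DESeq2 (1 at an unadjusted edgeR p under 0.05), with a median log2 difference of -0.32. Of the formative list 3 of 10 tested genes were higher, Utrn among them, and 1 lower. In the lineage list 1 of 5 was higher and 1 lower, again beside 5.75% higher and 6.76% lower of all genes tested.

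Between experiments the share of host genes that changed was near the background. In the comparison of the 2 libraries of experiment 2 from 10000 and 20000 cells with the 2 of experiment 1, 326 of 2494 tested hosts passed (13.1%, edgeR, adjusted p under 0.05), against 12.5% of all 12523 genes tested. At an unadjusted p under 0.05 were 27.1% of hosts (background 25.7%). In experiment 2, 163 hosts were higher (6.54%, background 5.75%) and 163 lower (6.54%, background 6.76%). The log2 change was at least 1 in size for 130 of the 326. In the 5000-cell library of experiment 2, which the fit did not use, 260 of the 326 (79.8%) lay on the side of experiment 2. The same share over all called genes was not taken, so this is not a result about hosts. Fewer hosts passed without either library of experiment 2 or without the 10000-cell library of experiment 1, and more without its 20000-cell library. Each such fit leaves 1 library in a group. Hosts with an open TSS had 94 higher (7.91%) and 57 lower (4.80%) calls of 1188, beside 6.31% and 5.22% of all genes tested with an open TSS. Hosts without one had 69 (5.28%) and 106 (8.12%) of 1306, beside 5.03% and 8.74% of all such genes.

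Among called hosts at a mean of 10 CPM or more whose ranges did not overlap, the largest rise was that of Lst1, a leukocyte-specific transcript of the major histocompatibility complex, at 3.21 and 1.87 CPM in experiment 1 and 15.4, 15.3 and 15.6 CPM in experiment 2. Its log2 change was 2.61 ± 0.30 (SE, edgeR adjusted p = 1.6e-06), and its single region was 1.58 kb from the TSS, in 7 lists. Utrn, the dystrophin homologue utrophin, stood at 13.7 and 13.0 CPM against 38.0, 43.7 and 40.9 CPM, a log2 change of 1.66 ± 0.18 (adjusted p = 5.75e-07). All 5 libraries kept the order of the experiments for both genes. The 8 regions of Utrn lay 69.5 to 371.9 kb from its TSS, each in 6 or 7 lists and none in experiment 2 only. The mRNA of the host differed by 3.16-fold, while each of its regions was in at least 4 of the 5 low-input lists.

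Cryzl1, a quinone oxidoreductase-like gene, rose from 12.9 and 12.2 to 41.3, 39.0 and 39.5 CPM. Eprn, a long non-coding RNA gene of 2.72 kb, rose from 12.7 and 11.3 to 31.6, 39.0 and 32.3 CPM, and its 98 bp region, 1.72 kb from the TSS, was in experiment 2 only. Apela, which encodes a peptide hormone, rose from 24.4 and 23.6 to 78.7, 72.0 and 62.0 CPM. The others of the 10 largest rises were Pdgfrl, Enpp3, Wdr83, Anxa2 and Mtmr12, with log2 changes from 1.35 to 1.55. Pdgfrl, Apela and Wdr83 lie on chromosome 8. Strand use in the counting is not given in the sources used here, so Cryzl1, Wdr83 and Anxa2, whose intervals each overlap 1 other gene, are uncertain.

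By the same rule the largest fall was that of Pdgfb, a platelet-derived growth factor subunit, at 21.8 and 19.3 CPM in experiment 1 and 8.65, 5.87 and 6.07 CPM in experiment 2. It fell by 1.78 ± 0.23 on the log2 scale (SE, edgeR adjusted p = 8.37e-06) and held 2 regions, 1.82 kb from the TSS in all 8 lists and 12.98 kb from it in 4. Cabp1, a calcium-binding protein gene with a 525 bp region in 7 lists, stood at 25.4 and 30.0 against 11.9, 6.13 and 10.8 CPM. Aplp1, an amyloid precursor-like gene with 2 regions in 7 and 6 lists, stood at 178 and 161 against 77.8, 68.0 and 78.1 CPM. None of these regions was specific to an experiment in the lists from 10000 and 20000 cells, whereas 1 of the 4 regions of C77080, whose mRNA fell by 1.17 on the log2 scale, was in experiment 2 only. Ptp4a3, Slc22a18, Epb41l1, Igsf21, Rasa4, C77080 and Crlf2 completed the 10 largest falls, with log2 changes from -1.31 to -1.15. None of the 10 lies on chromosome 8, and Pdgfb, Rasa4 and C77080 overlap 1 other gene each.

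**Figure D5:**
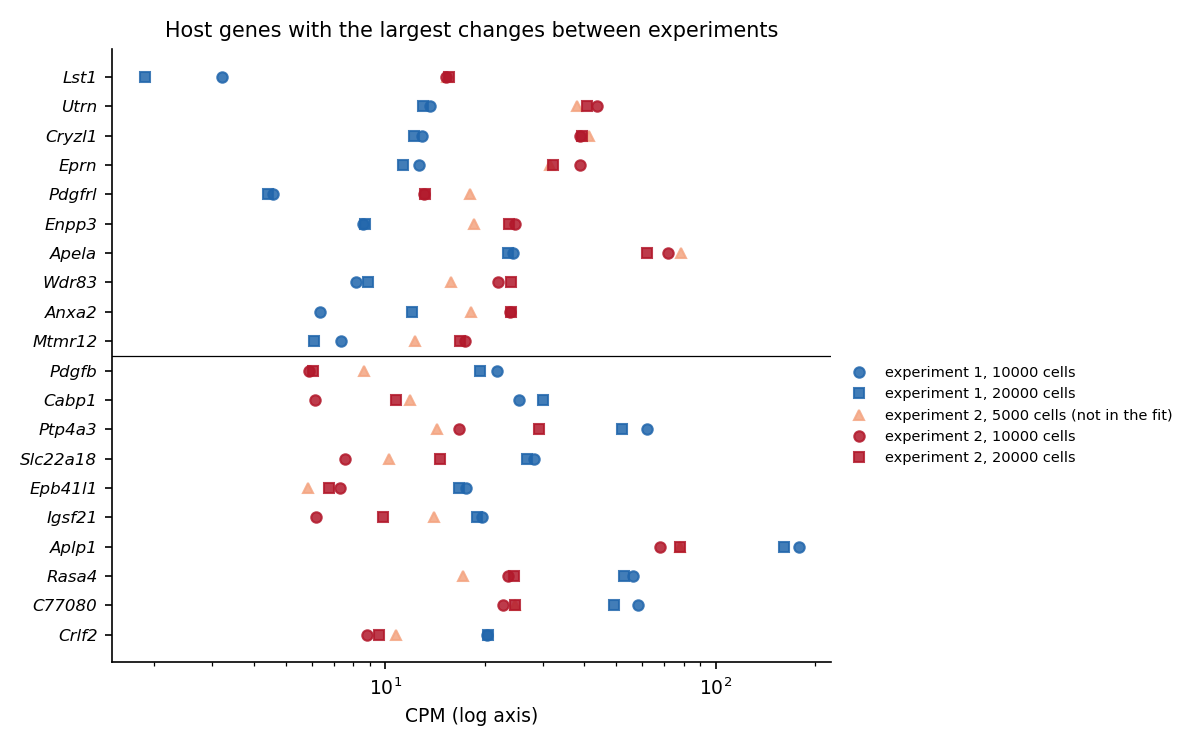
CPM (x axis, log axis) of the host genes with the 10 largest rises (above the line) and the 10 largest falls (below it) between experiments, among called hosts at a mean of 10 CPM or more with ranges that do not overlap; points are single libraries. The 5000-cell library, which was not in the fit, lies nearer experiment 2 for Utrn (38.0 CPM) and Pdgfb (8.65 CPM). For Igsf21 (14.0 CPM) it lies nearer experiment 1, with means of 19.3 CPM in experiment 1 and 8.02 CPM in experiment 2.

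Higher calls were frequent on chromosome 8. Of 174 tested hosts there, 52 were higher and 3 lower in experiment 2 (29.9% higher), and so were 30.3% of all 692 genes tested on that chromosome. On the other chromosomes 111 of 2320 hosts were higher (4.78%) and 160 lower (6.90%), near the 4.31% and 7.08% of all genes tested there. Markers of other cells were read in the same libraries. The summed level of 7 fibroblast markers was 31.4 and 34.9 CPM in experiment 1 and 7.54 to 10.0 CPM in experiment 2, most of it Thy1 in every library, with the collagen gene Col3a1 and Lum at 0 in all 5 libraries. Another collagen gene, Col1a1, stood at 1.89 and 0.870 against 0.119 to 0.903 CPM, which overlap. Of the list only Thy1 and Col1a1 could be tested, and Thy1 passed, beside 12.5% of all genes tested. The sum of 6 extraembryonic endoderm markers was 45.2 and 52.3 against 39.6 to 50.3 CPM, which overlap, and most of it was Lama1, a host. Of the 4 endoderm markers tested, 2 were lower and 0 higher, beside 6.76% and 5.75% of all genes tested, with a median log2 difference of -2.09. Dab2, also a host, stood at 8.23 and 4.35 against 0.490 to 1.03 CPM, and Gata6 at 3.21 and 1.47 against 0 to 0.294 CPM. Gata4, at 1.02 and 0.134 against 0.129 to 0.955 CPM, overlapped and was not tested. The same held for Sox17, at 0.146 and 1.74 against 0.0597 to 0.516 CPM. Lama1 went the other way and did not pass (log2 difference 0.30, edgeR adjusted p = 0.261). Sox7, at 17 and 18 counts against 0 to 16, did not pass the test. Their part in the host gene results was not tested. The 6 embryonic stem cell markers summed to 2490 to 2720 CPM in all 5 libraries, most of it Dppa5a. Of these 6 genes 1 was called (12.5% of all genes tested), Zfp42, at 344 and 320 against 430 to 466 CPM.

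The 458 regions found in experiment 2 only had 444 host genes. Of 329 tested, 31 were higher (9.42%, 95% Wilson interval 6.72 to 13.1%, background 5.75%) and 16 lower (4.86%, background 6.76%). Without chromosome 8, 17 of 280 were higher (6.07%, beside 4.31% of all genes tested off chromosome 8) and 15 lower (5.36%, beside 7.08%). On chromosome 8 alone 14 of 49 were higher (28.6%, beside 30.3% of all genes tested there) and 1 lower. Whether these hosts differ from all genes was not tested, and the Wilson interval covers counting error only, as if genes were independent. Hosts of regions held by both experiments had 103 higher and 117 lower calls of 1541.

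The 4 largest called rises among hosts of regions in experiment 2 only were in genes with low mRNA, and falls were not ranked. Nrp2, a semaphorin co-receptor, stood at 0.437 and 0.602 CPM in experiment 1 and 2.68, 6.96 and 5.53 CPM in experiment 2 (log2 change 3.56 ± 0.52, SE, edgeR adjusted p = 3.48e-05). Of its 4 regions 1, at chr1:62736630-62736804, was in experiment 2 only, and another was in all 8 lists; its interval overlaps 1 other gene. Meis2, a homeobox gene, stood at 0 and 0.335 against 1.19, 3.48 and 1.47 CPM. Casq2, the cardiac calsequestrin gene, stood at 0.291 and 0.201 against 2.15, 2.58 and 3.38 CPM, with regions 17.6 kb (all 8 lists) and 18.0 kb (experiment 2 only) from its TSS. Gna14, a G protein subunit gene, stood at 1.60 and 0.335 against 8.83, 4.06 and 7.44 CPM. The ranges of the experiments did not overlap for these 4 genes. Over the libraries of the fit this held for 325 of 326 called hosts and 56.1% of 2494 tested hosts. The edgeR calls of Casq2 and Gna14 were lost without the 20000-cell library of experiment 2, and that of Meis2 without its 10000-cell library.

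Of the 3 regions in experiment 1 only, the host Mreg stood at 31.0, 32.9, 19.2, 29.5 and 22.9 CPM and did not pass the test (edgeR adjusted p = 0.336), nor did Tulp4 (adjusted p = 0.305). Rbfox1 had counts in 1 library only and was not tested. The region in Mreg, at chr1:72205247-72205410, was in 4 lists.

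Between 20000 and 10000 cells no host gene passed the test. Of 2494 tested hosts 0 were called by edgeR (background 0%), with 17 at an unadjusted p under 0.05 (0.682%, background 0.807%), and 0 by DESeq2, with 8 at an unadjusted p under 0.05. With the experiment as a replicate block 0 were called, with 90 at an unadjusted p under 0.05 (3.61%, beside 4.52% of all genes tested in that fit). In simulated data this comparison recovered 1% of 2-fold and 68.8% of 4-fold changes, so a 2-fold change would seldom be called by this fit. Its groups each hold both experiments without a block, and its biological coefficient of variation was 32.0%, against 17.1% in the comparison of experiments.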

How the data were processed

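Open chromatin was measured in 8 ATAC libraries and mRNA in 5 libraries of E14 cells. The authors deposited the ATAC data as peak intervals with positions only, in 8 lists of single libraries and a unified list. They deposited mRNA as read counts per gene, on mm10 per the file headers. The submitters' processing notes name cutadapt, Bowtie2 2.1.0, SAMtools 1.3.1, Picard, bedtools 2.24.0, MACS2 2.1.1, STAR 2.5, featureCounts and Subread 1.5.0-p1, with no roles, thresholds or strand setting, and the build mm10. The making of the unified list is not given in the sources used here. The mRNA libraries held 13727122 to 20426252 counts each, and the count table had 0 columns outside these samples. Of 24470 gene IDs, 24467 were in RefSeq's table of GRCm38.p6. No genome was used here. The motif scan of all regions was therefore not made, and only RefSeq start windows were read.

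CPM were computed from the deposited counts. Genes were tested over the whole table with edgeR 4.0.16 (R 4.3.3; TMM, filterByExpr, quasi-likelihood, Benjamini-Hochberg, threshold 0.05), without a block, on the libraries from 10000 and 20000 cells; the 5000-cell library has no replicate and was set beside them. With 2 libraries a group, p-values measure only the spread between these libraries, which may be technical. Experiments mark a day, so the numbers pair the libraries; the experiment differences at 10000 and 20000 cells correlated with r = 0.562 across 11512 genes, which are not independent replicates. In simulated counts, 50.3% of 2-fold and 97.5% of 4-fold changes between experiments were recovered (12485 and 12475 genes). Lists were compared by exact permutation over libraries (scipy 1.17.1 in Python 3.11.15, with pandas 2.3.3, numpy 2.4.6, bedtools 2.31.1 and matplotlib 3.10.9). Wilson intervals and floors of 3 counts cover counting error only.

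Alternatives were DESeq2 1.42.0, RLE size factors, other filters, blocks, a TSS limit of 500 or 2500 bp, overlap by 50% of the shorter interval, intervals of at least 50 bp, the widest peaks, regions with 1 host, and leaving out each replicate. Bins of width, odds, leaving out chromosome 8 and leaving out start windows were chosen after seeing the data. The members, gene lists and tests were chosen with earlier results of these data known. Named genes are the 10 hosts with the most regions (the last is the shortest of 8 tied at 7 regions), the hosts of the 5 widest regions, hosts in the gene lists, the 10 largest called rises and falls whose mean was 10 CPM or more and whose ranges were apart, and the 5 largest called rises among hosts of regions in experiment 2 only. Genes whose start sequence is shown, Dab2, and the hosts of the 3 regions in experiment 1 only were named after their values were seen.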

Additional observations from a re-analysis of the deposited data

How the results depend on the processing

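The lower recovery of intragenic than of TSS-proximal regions kept its direction under every alternative run. It was -20.6 points among the widest peaks of every list, -8.68 points in the 5 low-input lists alone, where the test cannot pass, and -10.5 to -7.71 points without 1 list, where the adjusted p lay above 0.05. Limiting each list to its widest peaks took the difference from intergenic regions past the threshold (-2.80 points) and left the 3 trends with cell number at 3, 3 and 4 of 7 pairs for recovery, own-peak share and gap. The gap rose with cell number in 1 of 7 pairs with intervals of at least 50 bp and in 5 of 7 on the odds scale, and the cause was not tested. Without 1 list the trends held in 5 to 6 pairs (the gap narrowed in all, 0 rising) but could not pass, since fewer arrangements remain.

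Host expression was 59.2% with at least 1 CPM and 60.5% for hosts with exactly 1 region. Called hosts between experiments numbered 326, with 261 by DESeq2 and, by edgeR, 378 with cell number as a block, 179 among hosts of regions in all 5 low-input lists and 153 to 382 without 1 library. Higher calls among hosts of regions in experiment 2 only were 6.07% without chromosome 8. With the replicate block, pairing by experiment, 0 hosts were called between cell numbers, as without it. Cell number as a block added the calls of Kdm2b and Tbx3 among named genes. Of 541 alternative values for 62 named genes, 523 had the same outcome as the main fit, called or not called, 11 lost a call and 7 gained one. No called gene changed sign, while 29 values of 16 genes that were not called did, at -0.32 to 0.10. Depth is known for the mRNA libraries only.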
